A study of Mus musculus with 9 samples.

Results

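Recruited and lipid-associated macrophage genes are a set of 10 genes picked by symbol: Trem2, Gpnmb, Cd9, Cd68, Lyz2, Itgam, Itgax, Ms4a7, C1qa and Lgals3. They are 10 of the 18194 genes that a single symbol identified on the array, and 13 probe sets measure them, since Trem2, Gpnmb and Ms4a7 have 2 each. The tissue was liver of male C57Bl6 mice aged 12 months, kept on regular chow without treatment, measured with 1 Affymetrix array per tissue piece. The groups were 3 pieces of tumor (Het Tumor, labelled SART1+/-, hepatocellular carcinoma with severe steatosis), 3 pieces of liver next to that tumor (Het Liver, labelled SART1+/-, cellular alteration with severe steatosis), and 3 pieces of normal liver with mild steatosis (Normal, wild type). Per the design description, tumor and neighbouring liver came from the same mouse and the normal pieces from 1 other mouse. Spread between pieces is therefore spread within a single liver or tumor, and genotype, animal and degree of steatosis cannot be told apart.

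Macrophages of a healthy liver are mostly Kupffer cells, resident cells that line the sinusoids and clear particles from blood. When the liver is injured or fat-laden, blood monocytes enter and become macrophages, and a part of these take on a lipid-associated state first described in adipose tissue and marked by the receptor TREM2 with GPNMB and CD9. Steatotic livers and liver tumors are known to hold such cells. Several of the 10 genes are not limited to macrophages: CD9 and galectin-3 also occur in epithelial and tumor cells, and Itgam and Itgax in neutrophils and dendritic cells.

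The targeted gene Sart1 lay at 7.71 to 7.77 in tumor, 8.34 to 8.39 in the neighbouring liver and 8.32 to 8.36 in wild-type liver (log2), so the neighbouring pieces did not show a level below wild type, and they are called adjacent-labelled liver here. The hepatocyte gene Alb, albumin, averaged 14.45, 14.49 and 14.45 in tumor, adjacent-labelled and wild-type liver, at the upper end of the arrays, whose highest values were 14.43 to 14.51, so a difference in it could not be seen. All levels are log2 expression values made by RMA, which equalises the arrays, so a difference of 1 is 2-fold. A level of 1 probe set is not comparable with that of another. A gene was called when limma's adjusted p over 13888 tested genes was under 0.05 and the difference was at least 2-fold.

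All 10 genes were higher in tumor and in adjacent-labelled liver than in wild-type liver, without overlap between pieces. Itgam is counted here although it was above the 40th percentile of the array, the limit of the filter on dim genes, on 0 of 3 wild-type pieces, so it entered the test only through the groups where it was high. In tumor, 7 were called higher and 0 lower, against a background of 8.41% of all tested genes called higher, and the median log2 difference of the 10 was 1.56 against -0.01 over all genes. In adjacent-labelled liver the same 7 genes (Gpnmb, Cd9, Cd68, Lyz2, Itgax, Ms4a7 and Lgals3) were called, against a background of 8.29%, with a median of 1.51 against -0.01. Trem2, Itgam and C1qa stayed under 2-fold in each comparison. On the adjusted p alone, all 10 passed in both comparisons, where 33.2% and 34% of all genes passed as higher in tumor and in adjacent-labelled liver. Groups without overlap and higher occurred in 35.9% and 36.5% of all genes, so for a single gene that pattern is common here. These comparisons share the same 3 wild-type arrays. In bulk tissue, more macrophages, more RNA of these genes per macrophage and RNA of these genes from other cells cannot be told apart.

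**Figure D1:**
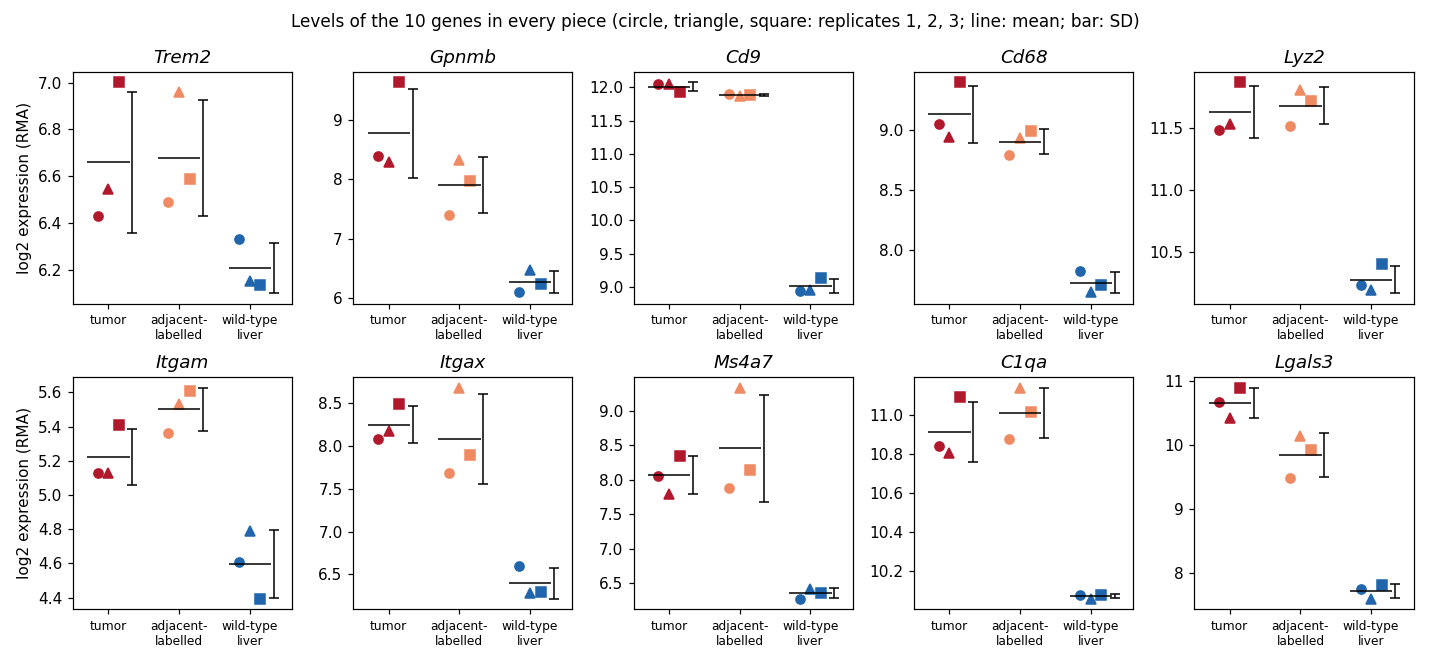
Log2 expression of each of the 10 genes (y axis, own scale per panel) in the 3 pieces of tumor, adjacent-labelled liver and wild-type liver, with the group mean as a line and the SD as a bar. In every panel the 3 wild-type pieces lie below all 6 others, and replicate 3 of tumor (square) and replicate 2 of adjacent-labelled liver (triangle) are often the highest of their groups.

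The promoter windows of Gpnmb, Cd68 and Itgax are shown as 3 of the 4 genes that were called in both comparisons and hold the AP-1 letters, a choice made after the matches were seen. The fourth, Ms4a7, is not shown because only 1 of its 2 windows holds them. Windows of 250 bases before to 50 after the gene start came from RefSeq (GRCm38.p6) and were available for 9 of the 10 genes, with 2 for Ms4a7. They were searched on both strands for GAGGAAGT (the macrophage factor PU.1), TCACGTGA (the core of the M-box bound by MiT/TFE factors), CACGTG (the E-box inside it) and TGANTCA (AP-1). TGANTCA, with any base at N, was found in 5 of the 9 genes, while 7.81% of 32851 windows of all genes hold it. That share counts windows and not genes. The other 3 motifs had no exact match in the 10 windows, and 3.2%, 0.974% and 7.15% of all windows hold GAGGAAGT, TCACGTGA and CACGTG. Sequences that differ from these letters were not searched, so sites of these factors may have been missed. The Gpnmb window is chr6:49036268-49036567, plus strand, that of Cd68 chr11:69666121-69666420, minus strand, and that of Itgax chr7:128129300-128129599, plus strand. Each is printed 5′ to 3′ along its gene, with the AP-1 letters in capitals.
Gpnmb: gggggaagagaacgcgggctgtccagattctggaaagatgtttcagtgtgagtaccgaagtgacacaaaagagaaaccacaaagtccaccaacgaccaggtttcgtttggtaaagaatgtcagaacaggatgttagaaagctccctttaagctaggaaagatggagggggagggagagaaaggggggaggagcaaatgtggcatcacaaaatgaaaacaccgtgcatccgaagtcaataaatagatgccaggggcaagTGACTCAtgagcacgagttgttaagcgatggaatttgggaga
Cd68: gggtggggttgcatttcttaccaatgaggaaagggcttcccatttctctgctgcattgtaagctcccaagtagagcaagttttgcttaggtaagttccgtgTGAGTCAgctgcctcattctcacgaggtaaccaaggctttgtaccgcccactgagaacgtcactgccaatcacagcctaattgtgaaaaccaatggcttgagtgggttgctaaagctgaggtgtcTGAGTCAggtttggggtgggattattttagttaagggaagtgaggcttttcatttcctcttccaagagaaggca
Itgax: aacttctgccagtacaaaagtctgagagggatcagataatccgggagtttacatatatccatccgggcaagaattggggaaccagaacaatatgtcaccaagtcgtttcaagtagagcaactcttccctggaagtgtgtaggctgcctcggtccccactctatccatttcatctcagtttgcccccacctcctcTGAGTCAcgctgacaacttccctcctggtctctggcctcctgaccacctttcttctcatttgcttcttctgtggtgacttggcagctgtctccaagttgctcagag
Cd68 holds the letters at 2 places, from -149 to -143 and from -24 to -18 relative to the start, Itgax from -56 to -50, and Gpnmb from 9 to 15, just inside the transcript. Trem2 holds TGAATCA from -9 to -3, and 1 of the windows of Ms4a7 holds TGATTCA from -81 to -75. These 2 genes thus have A or T at N, where Gpnmb, Cd68 and Itgax have C or G. The count of 5 genes takes in both kinds. A match describes these letters and no measured binding.

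Trem2 encodes the lipid-sensing receptor after which this macrophage state is often named. Its brighter probe set read 6.43, 6.55 and 7.0 in tumor, 6.49, 6.96 and 6.59 in adjacent-labelled liver, and 6.33, 6.15 and 6.14 in wild-type liver. The lowest tumor piece thus lay only just above the highest wild-type piece. The difference from wild type was 0.45 in tumor (SE 0.15, limma adjusted p = 0.0254), a fold of 1.37, and 0.47 in adjacent-labelled liver (SE 0.15, limma adjusted p = 0.021), a fold of 1.39. Without tumor replicate 3 the tumor difference was 0.28 (limma adjusted p = 0.0912), and without adjacent-labelled replicate 2 the other was 0.33 (limma adjusted p = 0.0765). The second Trem2 probe set stayed at 4.91 to 5.12 on all 9 arrays, below the 40th percentile of each array, and differed from wild type by -0.05 in tumor and -0.02 in adjacent-labelled liver.

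Gpnmb encodes a glycoprotein of lysosomes and the cell surface. Its brighter probe set read 8.39, 8.29 and 9.63 in tumor, 7.39, 8.32 and 7.98 in adjacent-labelled liver, and 6.11, 6.48 and 6.23 in wild-type liver. Tumor replicate 3 stood well above the other tumor pieces, and the adjacent-labelled pieces reached into the tumor range at its lower end. Gpnmb rose by 2.50 in tumor (SE 0.33, limma adjusted p = 6.59e-05), or 5.66-fold, and by 1.63 in adjacent-labelled liver (SE 0.33, limma adjusted p = 0.00147), or 3.09-fold. Its other probe set lay between 3.11 and 3.88 on all arrays, below the 40th percentile, with differences of 0.26 and 0.10.

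Cd9, a tetraspanin that organises membrane proteins, had the smallest spread of the 10 genes in tumor and in adjacent-labelled liver, and its rise and that of Lgals3 were the 2 largest. The level of Cd9 was 12.04, 12.05 and 11.93 in tumor, 11.90, 11.86 and 11.88 in adjacent-labelled liver, and 8.95, 8.96 and 9.14 in wild-type liver. Cd9 rose by 2.99 in tumor (SE 0.07, limma adjusted p = 1.51e-10), or 7.96-fold, and by 2.86 in adjacent-labelled liver (SE 0.07, limma adjusted p = 4.15e-10), or 7.28-fold. Unlike 9 of the 10 genes, it was not highest in tumor replicate 3. Other tetraspanins and CD9 partners were called higher in 5 of 9 tested genes in each comparison and lower in 0, with list medians of 1.13 in tumor and 1.12 in adjacent-labelled liver. Among them Tspan8, a tetraspanin of epithelial cells, rose by 8.04 in tumor and 7.20 in adjacent-labelled liver, and since it was above the 40th percentile on 0 of 3 wild-type pieces, the sizes depend on background. Ptgfrn, called higher in each comparison, was also above it on 0 of 3 wild-type pieces. Both genes entered the test only through the groups where they were high. The leukocyte tetraspanin Cd53 rose by 1.26 and 1.17. Cd81, Cd82 and Cd151 were at 0.72, 0.16 and 0.92 in tumor, under 2-fold, and Cd151 rose by 1.12 in adjacent-labelled liver.

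Lgals3 encodes galectin-3, a sugar-binding protein secreted by macrophages and by many epithelial cells. It read 10.66, 10.42 and 10.89 in tumor, 9.48, 10.14 and 9.91 in adjacent-labelled liver, and 7.76, 7.61 and 7.82 in wild-type liver, so no piece of 1 group reached the range of another. Lgals3 rose by 2.93 in tumor (SE 0.16, limma adjusted p = 8.31e-08), or 7.62-fold, and by 2.12 in adjacent-labelled liver (SE 0.16, limma adjusted p = 1.19e-06), or 4.34-fold. Of 8 tested genes of the galectin list, which includes the galectin-3 ligand Lgals3bp, 2 were called higher in each comparison and 0 lower, with medians of -0.22 in tumor and -0.11 in adjacent-labelled liver. Those called were Lgals1, at 1.5 in tumor and 2.25 in adjacent-labelled liver, and Lgals3bp, at 1.39 and 1.52, while Lgals9 was at -0.43 and -0.06.

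Cd68 and Lyz2 encode products used by phagocytes: a lysosomal membrane protein and the antibacterial enzyme lysozyme. Cd68 read 9.05, 8.94 and 9.39 in tumor, 8.79, 8.93 and 8.99 in adjacent-labelled liver, and 7.82, 7.65 and 7.71 in wild-type liver, a rise of 1.40 in tumor (SE 0.11, limma adjusted p = 1.27e-06) and 1.17 in adjacent-labelled liver (SE 0.11, limma adjusted p = 5.74e-06). Lyz2 read 11.48, 11.53 and 11.86 in tumor, 11.51, 11.81 and 11.71 in adjacent-labelled liver, and 10.24, 10.19 and 10.40 in wild-type liver. Its rise was 1.35 in tumor and 1.40 in adjacent-labelled liver (SE 0.11 each, limma adjusted p = 1.93e-06 and 1.7e-06). Lysozyme has a near-identical copy, Lyz1, and the array may not separate them. Of 24 tested lysosomal and MiT/TFE genes, 2 were called higher in tumor and 3 in adjacent-labelled liver, with medians of 0.15 and 0.35. Rragd, a GTPase of nutrient signalling at the lysosome, was called in each comparison and rose by 4.05 in tumor and 6.66 in adjacent-labelled liver. Those sizes depend on background because it exceeded the 40th percentile on 0 of 3 wild-type pieces. Rragd thus entered the test only through the groups where it was high. Lamp1, a relative of Cd68, was at -0.01 and 0.46, and the regulators Tfeb and Tfe3 were at 0.12 and 0.17 in tumor.

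Itgam and Itgax encode the alpha chains CD11b and CD11c of leukocyte integrins that pair with the beta chain Itgb2. Itgam read 5.13, 5.13 and 5.41 in tumor, 5.36, 5.53 and 5.61 in adjacent-labelled liver, and 4.61, 4.79 and 4.39 in wild-type liver. It exceeded the 40th percentile of the array on 1 tumor piece, 3 adjacent-labelled pieces and 0 wild-type pieces, so it entered the test through the groups where it was high and its differences depend on background. Those were 0.63 in tumor (SE 0.11, limma adjusted p = 0.000716) and 0.90 in adjacent-labelled liver (SE 0.11, limma adjusted p = 5.37e-05), both under 2-fold. Without wild-type replicate 2 the adjacent-labelled difference just reached 2-fold, at 1.0. Itgax read 8.09, 8.17 and 8.49 in tumor, 7.68, 8.68 and 7.90 in adjacent-labelled liver, and 6.60, 6.29 and 6.30 in wild-type liver. It rose by 1.85 in tumor (SE 0.22, limma adjusted p = 3.06e-05) and by 1.69 in adjacent-labelled liver (SE 0.22, limma adjusted p = 6.66e-05). Of 5 tested partner and ligand genes, the same 3 were called higher in each comparison: Itgb2 at 1.61 in tumor and 1.5 in adjacent-labelled liver, the ligand Icam1 at 2.48 and 2.44, and the integrin activator Fermt3 at 1.11 and 1.05. Itgal, the alpha chain of LFA-1, was at 0.67 and 0.57.

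Ms4a7 encodes a membrane protein of macrophages, and C1qa a chain of the complement starter C1q that tissue macrophages secrete. Ms4a7 read 8.05, 7.80 and 8.35 in tumor, 7.88, 9.33 and 8.14 in adjacent-labelled liver, and 6.28, 6.42 and 6.36 in wild-type liver. The second adjacent-labelled piece was the highest of all 9. Ms4a7 rose by 1.71 in tumor (SE 0.30, limma adjusted p = 0.000545) and by 2.10 in adjacent-labelled liver (SE 0.30, limma adjusted p = 0.000136), and by 1.66 there without that piece. Its dim second probe set, at 2.95 to 3.41, gave 0.17 and 0.30. Of 10 tested genes of the Ms4a family, 4 were called higher in each comparison and 0 lower, among them Ms4a6b at 2.06 in tumor and 2.13 in adjacent-labelled liver and Ms4a6d at 1.77 and 1.84, whereas the B cell gene Ms4a1 was at 0.90 and 0.29.

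C1qa read 10.84, 10.80 and 11.09 in tumor, 10.88, 11.14 and 11.01 in adjacent-labelled liver, and 10.07, 10.06 and 10.08 in wild-type liver. The groups stood clearly apart from wild type, but the difference stayed under 2-fold, at 0.84 in tumor (SE 0.09, limma adjusted p = 1.13e-05) and 0.94 in adjacent-labelled liver (SE 0.09, limma adjusted p = 5.6e-06). Without adjacent-labelled replicate 1 the second value was 1.01 and was called. The partner chain C1qb rose by 1.15 and 1.33, and C1qc was at 0.99 and 0.88. The other 4 genes of that list were not called in either comparison: the proteases C1ra and C1s1 were at -0.67 and -0.57 in tumor, and the receptors C3ar1 and C5ar1 at 0.31 and -0.16. The 1 call of that list in tumor became 2 without tumor replicate 1, tumor replicate 2 or wild-type replicate 1.

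Between tumor and adjacent-labelled liver, Gpnmb and Lgals3 had the largest differences of the 10 genes, and both were higher in tumor. None of the 10 was called, and with a background of 5.04% of all tested genes called in either direction that count is near what the background gives. On the adjusted p alone, 1 of the 10 passed, where 45.2% of all genes did, and 2 of the 10 had groups without overlap, where 53% of all genes did. The gene that passed was Lgals3, higher in tumor by 0.81 (95% interval 0.46 to 1.17, limma adjusted p = 0.00188), or 1.76-fold. Gpnmb was higher by 0.87, or 1.83-fold, with an interval of 0.14 to 1.61 (limma adjusted p = 0.052). That value rested on single pieces: it was 1.06 without tumor replicate 1, 1.12 without tumor replicate 2 and 1.09 without adjacent-labelled replicate 2, where it was called (limma adjusted p = 0.0433, 0.031 and 0.0318), and 0.44 without tumor replicate 3 (limma adjusted p = 0.15). Cd9 was at 0.13 (interval -0.02 to 0.28) and Cd68 at 0.23 (interval -0.02 to 0.47). Itgax was at 0.16 (interval -0.33 to 0.65). The means of Trem2, Lyz2, Itgam, Ms4a7 and C1qa were lower in tumor, at -0.02, -0.05, -0.28, -0.39 and -0.10. Of those 5 intervals, that of Ms4a7 was widest, from -1.06 to 0.28, and that of C1qa narrowest, from -0.29 to 0.10. Without adjacent-labelled replicate 2 the difference of Ms4a7 was 0.05 (limma adjusted p = 0.815). The order of the group means was tumor, adjacent-labelled, wild type for 5 genes, and adjacent-labelled, tumor, wild type for the other 5.

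**Figure D2:**
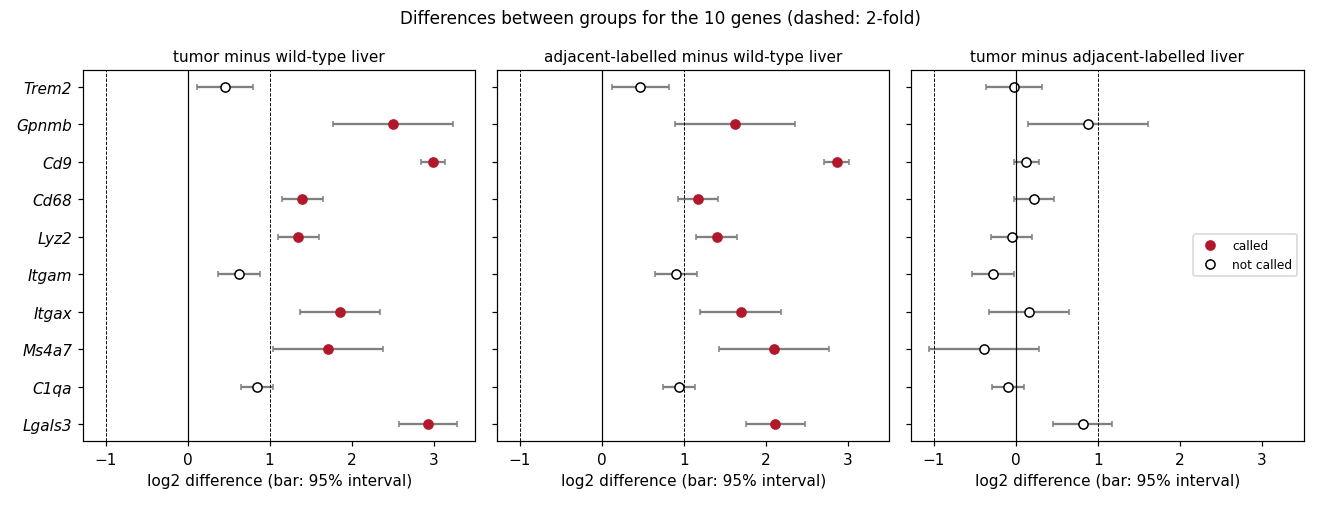
Log2 differences (x axis) of the 10 genes in the 3 comparisons, with 95% intervals as bars and dashed lines at 2-fold. Filled points mark called genes: 7 against wild-type liver in tumor and in adjacent-labelled liver, and 0 between tumor and adjacent-labelled liver.

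Single pieces stood apart for most of the 10 genes in tumor and in adjacent-labelled liver. Tumor replicate 3 was the highest tumor piece for 9 of the 10 genes, all but Cd9, whereas it was highest for 37.5% of all tested genes. It was also highest for 14 of 17 pan-macrophage markers and 11 of 14 Kupffer cell markers. Adjacent-labelled replicate 2 was the highest of its group for 7 of the 10 genes, against 31.6% of all tested genes, and replicate 1 was the lowest for 9 of the 10, against 33.8% of all tested genes. Replicate 1 lay farthest from the group mean for 6 genes and replicate 2 for the other 4. In replicate 2, Kupffer cell markers were low: 13 of 14 had their lowest adjacent-labelled value there, where 44% of all tested genes did.

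The contrast in adjacent-labelled replicate 2 was large for named genes. Relative to the mean of the other 2 adjacent-labelled pieces, Ms4a7 was higher by 1.32, Itgax by 0.89, Gpnmb by 0.64, Lgals3 by 0.45 and Trem2 by 0.42. Cx3cr1, a receptor of monocyte-derived cells picked from a list of monocyte genes, was higher by 1.01. The other genes of that list were not compared in this way. Clec4f, the lectin that defines Kupffer cells, read 9.29 in that piece and 10.57 and 10.61 in the other two, and the differences were -1.30 for Clec4f, -1.09 for Folr2, -1.02 for Vsig4 and -0.86 for Timd4. Not every Kupffer cell marker differed as much: Nr1h3, Id3 and C6 were at -0.05, -0.06 and -0.24. Cd9 and Cd68 differed by -0.02 and 0.04. With 1 array there is no test of this contrast. In tumor replicate 3, both sets moved the same way, with Gpnmb higher by 1.29 and Clec4f by 0.31 than in the other tumor pieces. Folr2 and Nr1h3 were named after their values were seen. All 7 calls remained in both comparisons without either piece.

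**Figure D3:**
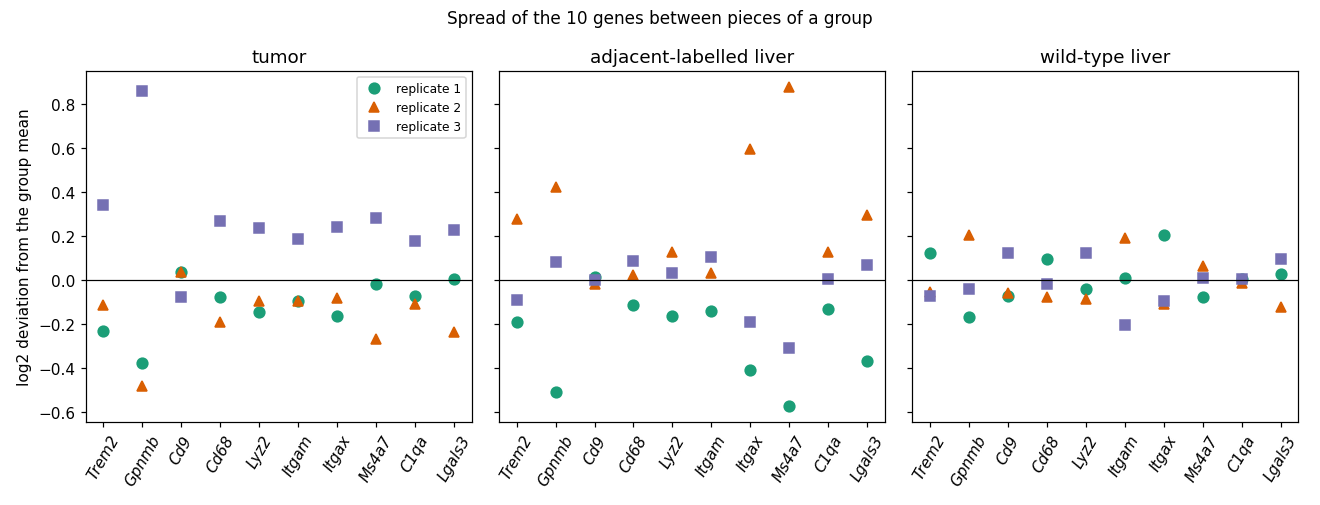
Deviation of each piece from its group mean (y axis, log2) for the 10 genes (x axis) in tumor, adjacent-labelled and wild-type liver. In tumor the square of replicate 3 is highest for 9 genes, in adjacent-labelled liver the triangle of replicate 2 is highest for 7, and in wild-type liver no piece leads.

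Most genes of the pan-macrophage list were called higher, though not all, and Kupffer cell markers were mixed. Of 17 pan-macrophage markers, 11 were called higher in tumor and 10 in adjacent-labelled liver, with 0 lower and medians of 1.15 and 1.26. Their summed level, in which the brightest genes weigh most, was 14.34 to 14.55 in tumor, 14.40 to 14.49 in adjacent-labelled liver and 12.85 to 12.98 in wild-type liver (log2). Cd14, an endotoxin receptor, rose by 4.59 and 3.81, Cybb, the NADPH oxidase subunit, by 2.57 and 3.35, and Mpeg1 by 2.19 and 2.46. The macrophage genes Adgre1, which encodes F4/80, and Csf1r, the growth factor receptor, stayed under 2-fold, at 0.70 and 0.54 in tumor and 0.72 and 0.50 in adjacent-labelled liver. Of the 6 genes not called in tumor and 7 not called in adjacent-labelled liver, Mertk was at 0.27 and 0.04. Mrc1, named after its values were seen, was at -0.20 and -0.41.

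Of 14 Kupffer cell markers, 2 were called higher and 3 lower in tumor, where 4.59% of all genes were called lower, with a median of 0.03. Those called higher were the transcription factor gene Spic, at 1.11, and Cd5l, at 1.06. Those called lower were Cd163, Timd4 and the complement gene C6, at -1.52. The counts were 0 higher and 3 lower without tumor replicate 3, and 2 higher and 1 lower without wild-type replicate 3. In adjacent-labelled liver 0 were called higher and 4 lower, where 3.22% of all genes were called lower, with a median of -0.03. Without adjacent-labelled replicate 2 those counts were 2 higher and 2 lower: Marco and Fcna were no longer called lower, at -0.97 and -0.84, and Cd5l and Slc40a1 were called higher, at 1.23 and 1.04. Fcna and Cd5l were named after their values were seen. The scavenger receptor Cd163 was at 3.91 ± 0.15 in tumor, 3.80 ± 0.29 in adjacent-labelled liver and 8.78 ± 0.03 in wild-type liver (SD, n = 3), so it fell by 4.87 in tumor and fell by 4.98 in adjacent-labelled liver. It was above the 40th percentile on 0 of 3 pieces of each of those groups and on 3 of 3 wild-type pieces, so it was tested through wild-type liver and the sizes depend on background. Timd4, a receptor of long-lived resident cells, fell by 1.04 in tumor and fell by 1.52 in adjacent-labelled liver. Clec4f and Vsig4 differed from wild type by -0.06 and 0.50 in tumor and by -0.24 and 0.18 in adjacent-labelled liver.

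The wider lipid-associated program rose in part. Of 18 tested genes of that state outside the 10, 11 were called higher in tumor and 12 in adjacent-labelled liver, with 0 lower and medians of 1.19 and 1.38. Lipoprotein lipase, Lpl, rose by 3.46 in tumor and 4.71 in adjacent-labelled liver, the cysteine protease inhibitor Cstb by 1.71 and 1.98, and the fatty acid carriers Fabp5 and Fabp4 by 1.65 and 1.24 in tumor and by 1.80 and 1.5 in adjacent-labelled liver. Fabp5 and Fabp4 varied more between pieces, with an SE of 0.45 and 0.28 against 0.09 for Lpl. Mmp12, the macrophage elastase, and Clec7a, the fungal receptor dectin-1, both named after their values were seen, rose by 3.28 and 2.73 in tumor and by 3.10 and 2.43 in adjacent-labelled liver. Mmp12, counted as called higher in each comparison, was above the 40th percentile on 0 of 3 wild-type pieces. It entered the test only through the groups where it was high, and its sizes depend on background. Not every gene followed: the lysosomal lipase Lipa was at -0.59 and 0.19, and the proton pump subunit Atp6v0d2 was at 0.12 in tumor and rose by 1.36 in adjacent-labelled liver. Hepatocytes also express several of these genes, among them Cd36, Plin2 and the cathepsins.

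TREM2 signals through the adaptor Tyrobp, also called DAP12, and the kinase Syk. Tyrobp rose by 1.51 in tumor and 1.33 in adjacent-labelled liver, while Syk, the phospholipase Plcg2 and the phosphatase Inpp5d were at 0.89, 0.46 and 0.52 in tumor and 0.74, 0.26 and 0.68 in adjacent-labelled liver, all under 2-fold. The other adaptor, Hcst, was at 0.06 and 0.05. Of these 7 signalling and shedding genes, 1 was called in tumor and 2 in adjacent-labelled liver, where the sheddase Adam10 rose by 1.04 and the count was 1 without wild-type replicate 1. In the TREM family, Treml4 rose by 1.18 in tumor, and the other 4 genes were not called in either comparison. Without adjacent-labelled replicate 2, 1 gene of the family was called there, in place of 0.

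Of 13 tested genes of monocyte recruitment and differentiation, 8 were called higher and 0 lower in tumor. In adjacent-labelled liver 7 were called higher and 1 lower, the transcription factor gene Cebpb, which fell by 1.07. Medians were 1.22 and 1.17. Plac8, the chitinase-like Chil3 and the calcium-binding S100a4 rose by 1.98, 2.52 and 2.38 in tumor and by 2.11, 2.29 and 2.37 in adjacent-labelled liver. Chil3, S100a4 and Ccr1, all counted as called higher in each comparison, were above the 40th percentile on 0 of 3 wild-type pieces. They entered the test only through the groups where they were high, and their sizes depend on background. Cx3cr1 rose by 1.40 and 1.52. The monocyte chemokine Ccl2 was at 0.41 and 0.85, and its receptor Ccr2, the marker of freshly arrived monocytes, at -0.26 and -0.22. Neither was called in either comparison.

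**Figure D4:**
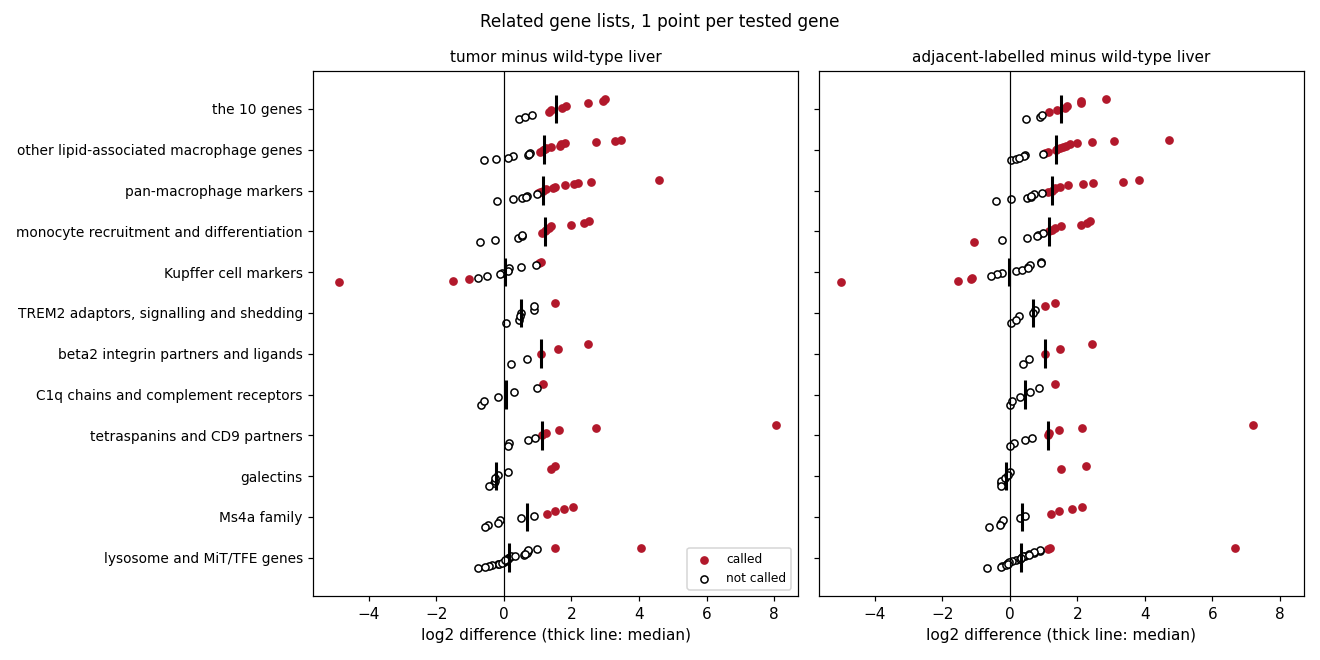
Log2 difference from wild-type liver (x axis) for each tested gene of the 10 and of 11 related lists, with a thick line at each list's median, in tumor and in adjacent-labelled liver. The 10 genes and the other lipid-associated, pan-macrophage, monocyte, integrin and tetraspanin lists have medians above 1, the Kupffer list has medians of 0.03 and -0.03, and Cd163 is its far left point.

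Markers of other cells that can carry some of the 10 genes were as follows. Of 9 tested neutrophil markers, which share Itgam, 3 were called higher and 0 lower in each comparison, with S100a8 at 3.27 and 2.82. Their summed level was 10.82 to 11.10 in tumor, 10.56 to 10.89 in adjacent-labelled liver and 9.38 to 9.47 in wild-type liver, while the neutrophil receptor Cxcr2 was at -0.17 and -0.15. Of 6 tested dendritic cell markers, which share Itgax, 0 were called in any comparison, with a summed level of 8.78 to 8.93 in tumor, 8.80 to 8.87 in adjacent-labelled liver and 8.66 to 8.82 in wild-type liver. Of 7 tested cholangiocyte markers, whose cells can carry Cd9 and Lgals3, 2 were called higher in tumor and 3 in adjacent-labelled liver, with Cldn7 at 3.81 and 5.31, but Epcam was at 0.09 and -0.06 and Krt19 at 0.31 and -0.13. Their summed level was 10.64 to 10.79 in tumor, 11.14 to 11.43 in adjacent-labelled liver and 9.08 to 9.18 in wild-type liver. Cldn7 was the brightest gene of that sum in adjacent-labelled liver, with a mean of 10.66 there and 5.36 in wild-type liver. Of 6 platelet markers, whose cells carry Cd9, 1 was called higher in tumor and 0 in adjacent-labelled liver. In tumor and in adjacent-labelled liver, 0 and 0 of 8 T cell markers, 1 and 2 of 6 NK cell markers, 2 and 0 of 6 B cell markers, 1 and 2 of 9 endothelial markers and 4 and 4 of 9 stellate cell and fibroblast markers were called higher. Called lower were 1 stellate cell marker in each, Lrat, at -1.11 and -1.02, and 1 endothelial marker, Clec4g, at -1.03 in adjacent-labelled liver. Of 9 hepatocyte markers, 2 were called lower in each. Klrd1 and Ppbp, the NK cell and platelet genes called in tumor, were above the 40th percentile on 0 of 3 wild-type pieces. Cftr, a cholangiocyte gene called in adjacent-labelled liver, was above it on 0 of 3 wild-type and 0 of 3 tumor pieces. These genes entered the test only through groups where they were high. Leaving out 1 piece moved several of these small counts by over 1.5 times: without adjacent-labelled replicate 2, the counts in adjacent-labelled liver were 0 for NK cells, 1 for platelets, 1 for hepatocytes and 1 for endothelium, and without wild-type replicate 3 they were 1 for NK cells and 1 for platelets. In tumor, the B cell count was 1 without tumor replicate 3 or wild-type replicate 3, the NK cell count 2 without tumor replicate 2 or wild-type replicate 3, and the endothelial count 2 without tumor replicate 2. The part of these cells, and of hepatocytes or tumor cells, in the levels of the 10 genes was not tested.

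The genes whose profile over the 9 arrays was most like that of Trem2, by Euclidean distance between profiles centred on their means among the other 13887 tested genes, were Nemp2, Wls, Ift57, Pou2f2 and Hpgds, at distances of 0.26 to 0.35 log2. For Gpnmb they were Scn8a, Rab31, Glipr1, Pold4 and S1pr3, at 1.01 to 1.09. None of the 10 genes was among them.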

How the data were processed

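Per the submitters' processing notes, Affymetrix Expression Console (version 1.3.1.187) and RMA were used, and the deposited values are on a log2 scale, 1 per probe set and array. RMA equalises the arrays, so a change of most genes in 1 direction would not show, and without detection calls dim levels cannot be told from background. The number of arrays limits the precision. Of 45101 probe sets, 34958 had 1 gene symbol in the platform annotation and were used. Each gene was represented by its brightest probe set and tested when 3 or more of the 9 arrays had it over their 40th percentile, which left 13888 genes. All 10 genes passed.

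limma 3.58.1 in R 4.3.3 fitted 1 mean per group over all 9 arrays, with Benjamini-Hochberg adjustment over all genes tested. The step was tested on simulated data. Each group is a single animal's tissue, so p-values measure the spread between pieces. The 10 genes and the 22 gene lists were chosen with earlier results of these data known. List genes given with values are among each list's first 4 tested and up to 3 of smallest adjusted p per comparison, unless marked. Not every gene that meets this rule is named. A list's summed level is the log2 of its summed linear values, so its brightest probe sets weigh most. Replicate numbers did not pair the pieces, so no block was used. Alternatives covered the call threshold, the filter, the probe set rule, normalization, variance model, array weights, the 2 groups alone, a replicate block and each array left out.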

Additional observations from a re-analysis of the deposited data

How the results depend on the processing

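The 7 calls against wild-type liver numbered 6 to 10 under all 23 alternatives in tumor and in adjacent-labelled liver, always higher, and no called difference of the 10 genes changed sign. With the mean of probe sets, Ms4a7 in tumor (0.94) and Gpnmb in adjacent-labelled liver (0.86) fell under 2-fold, since the mean takes in their dim probe sets. Leaving out each array gave 7 to 7 calls of the 10 genes in tumor, 7 to 8 in adjacent-labelled liver and 0 to 1 between them, and 1777 to 1821, 1570 to 1624 and 666 to 718 called genes in all in the same order. Between tumor and adjacent-labelled liver, 1 of the 10 genes was called with no minimum size. Without a minimum size, 8799, 8745 and 6274 genes were called in tumor against wild-type, adjacent-labelled against wild-type, and tumor against adjacent-labelled liver, in place of 1806, 1599 and 700. With every probe set on its own, 2901, 2578 and 1140 were called, because more features were tested. The replicate number as a block gave 7, 7 and 0 calls of the 10 genes and 1807, 1599 and 700 of all genes, so it changed no call of the 10. Same-numbered pieces correlated at -0.113 to 0.138 in their deviations over all comparisons. Between tumor and adjacent-labelled liver, which came from the same mouse, the range was 0.0397 to 0.0885. No tumor piece there correlated best with its own number, so the numbers were not taken to pair the pieces. Of 1518 list counts under an alternative, 103 moved by over 1.5 times, 54 of them without a minimum size and 21 with an array left out.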
